A study of Homo sapiens with 18 samples.

Results

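MC26 cells that had been stained for CD10 and sorted by flow cytometry were compared with MC26 cells that had not been sorted. The comparison used 4 sorted arrays, namely 2 of CD10- cells and 2 of CD10+ cells entered with equal weight, and 2 arrays of unsorted cells. These 6 arrays are part of a series of 18 arrays, in which MCF10A-CT and M1B26 cells were profiled in the same 3 populations with 2 arrays each. All members were picked by their labels, and no measured value defined the groups. The members were chosen with earlier results of these data known.

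MCF10A is an immortalised, non-malignant human mammary epithelial line that lacks CDKN2A and carries extra copies of MYC. MC26 cells arose from unsorted MCF10A cells held for a long time in BMP2 and IL6, whereas M1B26 cells arose from MCF10A cells first sorted for the BMP receptor BMPR1B, and MCF10A-CT is the untreated control. The labels of the MC26 arrays give a medium with BMP2 at 5 ng/ml and IL6 at 10 ng/ml, while the growth protocol gives both at 10 ng/ml. All 3 lines also received horse serum, insulin, hydrocortisone, cholera toxin and EGF. All cells were trypsinised and washed. One portion was then frozen and another was stained and sorted, so freezing, staining, cell sorting and RNA preparation cannot be told apart as sources of a difference between the populations. The labels call the arrays biological replicates and do not say whether these were separate cultures, so the p-values measure the spread between these arrays. MC26 is 1 line, and n counts its arrays.

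Flow sorting commonly exposes cells to cold buffer, antibody, pressure and shear, in addition to the detachment that the unsorted cells also went through here. Responses known to follow such handling include the immediate early genes, which growth factor and stress kinases switch on within minutes, the heat shock genes, which HSF1 switches on when proteins misfold, the NF-kB genes, which encode cytokines and feedback inhibitors, and the integrated stress response, in which ATF4 switches on amino acid synthesis and transport. Epithelial cells also lose contact with their neighbours when they are detached, at desmosomes and tight junctions. The comparison therefore asks which of these programmes, and which other genes, differed between sorted and unsorted MC26 cells.

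Before the genes, the control probe sets already separated the populations. For ACTB (beta-actin), a higher ratio of the 3′ probe set to the 5′ probe set means that less of the signal reached the 5′ end of the transcript. The ratio was 1.56 and 1.98 in the unsorted MC26 arrays, 1.13 and 1.19 in the CD10- arrays and 1.12 and 1.15 in the CD10+ arrays. Both unsorted arrays were above all 4 sorted arrays, and the unsorted arrays of MCF10A-CT (1.96 to 2.14) and M1B26 (1.94 to 2.03) were likewise above their sorted arrays (1.23 to 1.34 and 1.11 to 1.32). The same ratio for GAPDH overlapped in MC26, at 0.946 to 0.963 unsorted and 0.93 to 0.961 sorted. Polyadenylated bacterial transcripts were spiked into the RNA before amplification, and the spike-in dap gave intensities of 401 to 404 in the unsorted arrays against 895 to 1368 in the sorted arrays. The 3′ probe set of 18S ribosomal RNA read 781 to 1059.9 unsorted and 2103 to 3926 sorted. The ACTB, dap and 18S differences ran the same way in all 3 lines, and their part in the gene results was not tested.

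**Figure D1:**
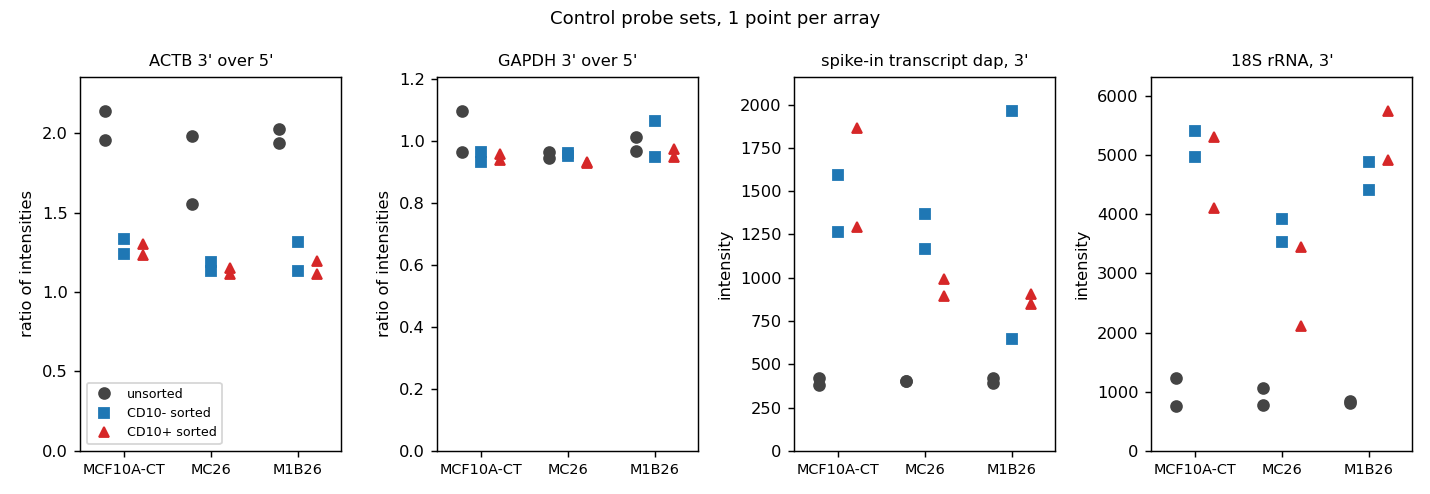
Control probe sets on all 18 arrays, 1 point per array, as ratios of intensities (ACTB and GAPDH, 3′ over 5′) or as intensities (spike-in dap and 18S ribosomal RNA), by line on the x axis and by population in colour and shape. The unsorted arrays lie above the sorted arrays of their line for the ACTB ratio and below them for dap and 18S ribosomal RNA, while the GAPDH ratio overlaps in MC26 and M1B26.

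The second fact that bears on every result is that the 2 unsorted MC26 arrays differed from each other. Among the 12171 genes tested, 1273 (10.5%) were over 2-fold apart between unsorted replicate 1 and replicate 2, against 624 between the CD10- arrays and 622 between the CD10+ arrays. Replicate 1 correlated less with the 4 sorted arrays (Pearson r of 0.951 to 0.956 across genes) than replicate 2 did (0.96 to 0.969), and the sorted arrays correlated with each other at 0.975 to 0.985. Genes are not independent replicates, and these correlations are descriptions. The unsorted M1B26 arrays differed by replicate number in a like way (r = 0.46 between the replicate differences of the 2 lines, across genes), and the unsorted MCF10A-CT arrays less so (r = 0.08 with MC26).

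The cells carried the epithelial identity of their label. Of 10 mammary epithelial markers, 8 had a probe set and all 8 lay above the level used as the filter, among them 5607 and 6075 in the unsorted, 4702 and 4699 in the CD10- and 3776 and 5282 in the CD10+ arrays for the basal keratin KRT5. Summed over the 8 markers, intensities were 23132 to 27493 in unsorted and 19257 to 23880.0 in sorted cells, which overlap. Of 12 leukocyte markers with a probe set 4 were above the level, with sums of 294 to 546 unsorted and 422 to 613 sorted, and PTPRC, the common leukocyte antigen, read at most 8.86 on any MC26 array. Fibroblast markers (5 of 10 above the level) summed to 363 to 2809 unsorted and 401 to 991 sorted. MME, which encodes CD10 itself, read 34.0 and 35.5 in the unsorted, 27.8 and 6.39 in the CD10- and 69.8 and 90.7 in the CD10+ arrays, so the unsorted arrays lay between the fractions, and the sorted average differed from unsorted by -0.06 on the log2 scale (limma, adjusted p = 0.973).

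Sorted MC26 cells had higher levels of the co-chaperone gene STIP1 and the cathepsin gene CTSZ, of the chemokine gene CXCL3 and the NF-kB subunit gene NFKB2, and lower levels of the junction genes DSG3, DSP and CLDN7 and of S100P and CHI3L1. In all, 63 genes rose and 37 fell among 12171 tested (limma, Benjamini-Hochberg adjusted p under 0.05), which is 0.822% of all genes tested, 0.518% higher and 0.304% lower. The median change was 2.59-fold among those that rose and 2.19-fold among those that fell, and 51 of the first and 28 of the second changed by at least 2-fold. In each of the 100 genes the 4 sorted arrays did not overlap the 2 unsorted arrays, a separation that 27% of all genes tested showed (9.92% higher and 17.1% lower in sorted cells). Over all genes the median difference was -0.07 on the log2 scale, and 1768 of the 12171 stood at an unadjusted p under 0.05 (limma). As the arrays of the 100 did not overlap, leaving out an unsorted array could not turn their direction. All 100 kept their direction without either unsorted array, 30 passed without unsorted replicate 1 and 41 without unsorted replicate 2, and 13 passed both ways. Because the sorted arrays of the same replicate number deviated together (r = 0.36 between the replicate differences of the fractions, across genes), the fractions were also averaged by number, which left 2 sorted values against 2 unsorted ones and 22 genes called, 21 of them among the 100. Of the genes named below, those that passed in that fit were STIP1, PDIA3, CTSZ, CDK9, PDAP1, LMNA, TAL1, AAAS, TUT1, RRP9, LINC00342, THUMPD3-AS1, NOTCH2NLA and HERC1. With the probe sets of a gene averaged in place of the single one used, 83 genes passed, 44 of them among the 100.

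**Figure D2:**
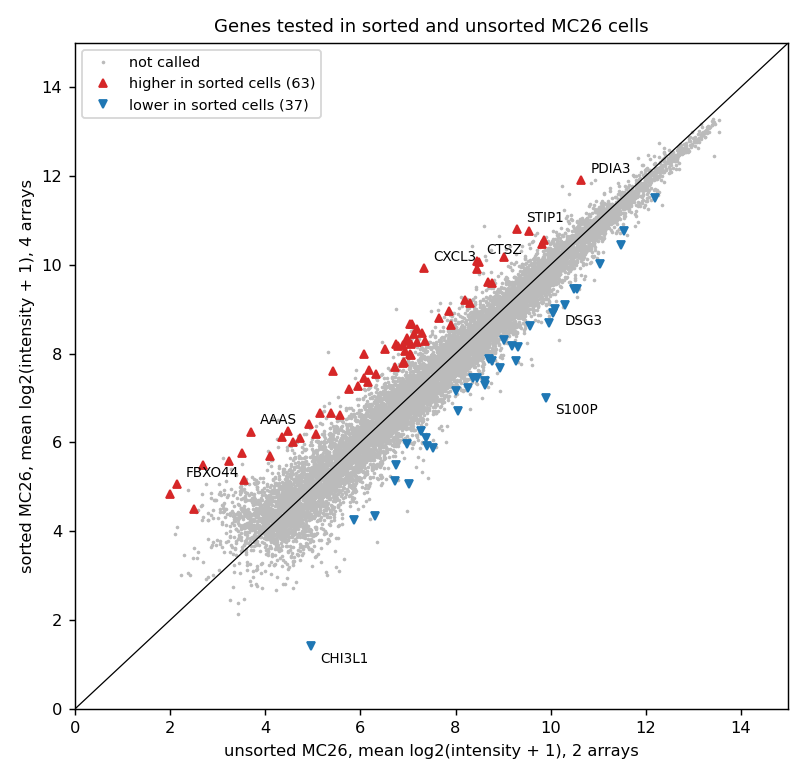
Mean log2(intensity + 1) of each of the 12171 genes tested in unsorted MC26 cells (x axis, 2 arrays) and in sorted MC26 cells (y axis, 4 arrays). Upward red triangles mark the 63 genes called higher and downward blue triangles the 37 called lower, the line marks equal levels, and CHI3L1 and S100P lie farthest under it.

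The genes described here are named because of their small p-values, and several act in protein folding, the lysosome or transcription. AAAS and TAL1 (limma, adjusted p = 0.00197 and 0.00418) had smaller p-values than LMNA and are described further below. STIP1 encodes a co-chaperone that hands clients from HSP70 to HSP90. Its intensities were 582 and 682 in the unsorted, 2104 and 1686 in the CD10- and 1722 and 1699.6 in the CD10+ arrays. Every sorted array was thus more than 2-fold above both unsorted arrays, a rise of 1.51 ± 0.17 in log2 units (adjusted p = 0.00118). PDIA3, a disulfide isomerase of the endoplasmic reticulum that works with calnexin and calreticulin, read 1632 and 1560.4 in the unsorted, 4349 and 3886 in the CD10- and 3173 and 4044 in the CD10+ arrays. The unsorted arrays were close together and below all sorted arrays, with a difference of 1.27 ± 0.14 (adjusted p = 0.00118), although 2 other probe sets of PDIA3 gave -0.24 and -0.12. With its probe sets averaged the PDIA3 difference was 0.30 (adjusted p = 0.448). CTSZ, the lysosomal protease cathepsin Z, went from 330.4 and 366 in the unsorted arrays to 808 to 1549 in the sorted arrays, a rise of 1.63 ± 0.20 (adjusted p = 0.00118). CDK9, the kinase that releases paused RNA polymerase II, rose by 1.58 ± 0.18, PDAP1 by 1.58 ± 0.19 and LMNA, which encodes the A-type nuclear lamins, by 1.21 ± 0.17 (adjusted p = 0.00118, 0.00118 and 0.00457). The 4 other probe sets of LMNA gave -1.10 to 1.61, and 3 of them were above 0. With probe sets averaged, LMNA was 0.55 and PDAP1 0.85 (adjusted p = 0.214 and 0.102). These 6 genes, with AAAS, AKAP8L, HERC1, MAD1L1, RRP9, TAL1 and THOP1, make up the 13 that passed without either unsorted array.

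Among 17 tested genes of the heat shock and chaperone list, 1 passed, SERPINH1, and the list median was 0.16 against -0.07 over all genes. SERPINH1 encodes the collagen chaperone HSP47. It read 474 and 566 in the unsorted, 1336 and 1117 in the CD10- and 1028 and 1150.4 in the CD10+ arrays, without overlap, and rose by 1.15 ± 0.18 (adjusted p = 0.00904), with an adjusted p of 0.0722 without unsorted replicate 1. With the fractions averaged by replicate number SERPINH1 did not pass (adjusted p = 0.0706). The other classical heat shock genes did not pass. HSP90AA1, the inducible HSP90, differed by 0.02 ± 0.16, HSPH1 by 0.27 ± 0.27, DNAJB1 by 0.01 ± 0.50 and BAG3 by 0.27 ± 0.22 (adjusted p = 0.968, 0.699, 0.995 and 0.605). Without unsorted replicate 1 the list median was -0.14, and without replicate 2 it was 0.46. HSPA1A and HSPA1B are not analysed here, since no probe set names either gene alone. STIP1, CDC37 (which loads kinases onto HSP90, 0.82, adjusted p = 0.0483), FKBP2 (a prolyl isomerase of the endoplasmic reticulum, 1.12, adjusted p = 0.0292) and BCAP31 (a sorting factor of that membrane, 0.66, adjusted p = 0.0475) also rose and were picked after their values were seen. The calls of CDC37, FKBP2 and BCAP31 were lost on leaving out either unsorted array. With replicate 1 and 2 left out in turn, CDC37 differed by 0.84 and 0.79, FKBP2 by 1.19 and 1.06 and BCAP31 by 0.72 and 0.61. In the unfolded protein response list, which holds the BiP gene HSPA5 (-0.07 ± 0.25, adjusted p = 0.925), 0 of 18 passed in this limma fit (6 at an unadjusted p under 0.05), and the median was -0.24.

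The SERPINH1 promoter is shown because it is the heat shock list's called gene and its start window holds the heat shock element (GAA, TTC and GAA in a row with any 2 bases between units), searched on both strands and found here on the reverse strand. The letters come from RefSeq (GRCh38.p14, chr11:75562003-75562252, plus strand, the 250 bases before the transcription start), and capitals mark the match, which begins 76 bases before the start.
SERPINH1: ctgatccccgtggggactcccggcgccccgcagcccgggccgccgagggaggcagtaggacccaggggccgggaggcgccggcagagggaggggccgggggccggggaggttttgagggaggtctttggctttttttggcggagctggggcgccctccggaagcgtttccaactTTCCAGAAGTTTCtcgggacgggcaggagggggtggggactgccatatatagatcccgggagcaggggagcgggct
The element is present in 155 of 35116 such windows (0.441%). Counted by gene, at least 1 window holds it in 0.557% of the 27305 genes of that table and in 7 of the 16 listed heat shock genes found there, including HSP90AA1, HSPD1 and CHORDC1. SERPINH1 has 2 windows, of which 1 holds the element.

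Of the TNF and NF-kB list, 2 of 27 tested genes rose and 0 fell, with a median of 0.57 on the log2 scale. The genes were CXCL3, a chemokine for neutrophils, and NFKB2, which encodes the p100 precursor of the p52 subunit. CXCL3 read 108 and 236 in the unsorted, 1788 and 395 in the CD10- and 1632 and 749 in the CD10+ arrays. The lowest sorted value was above the higher unsorted value, and replicate 1 of both fractions was above replicate 2. The rise was 2.58 ± 0.50 (adjusted p = 0.0253), with an adjusted p of 0.191 without unsorted replicate 1 and 0.0350 without replicate 2. NFKB2 read 22.6 and 16.8 in the unsorted, 77.2 and 69.2 in the CD10- and 66.8 and 63.3 in the CD10+ arrays and rose by 1.77 ± 0.30 (adjusted p = 0.0124), again with no overlap. Its adjusted p was 0.0313 and 0.0647 without unsorted replicate 1 and 2 in turn and 0.108 with the fractions averaged by number. Another probe set of NFKB2 gave 0.92, and with its probe sets averaged the difference was 0.79 (adjusted p = 0.378). CXCL8, the chemokine interleukin 8, did not pass at 2.07 ± 0.51 (adjusted p = 0.0692) although its values of 255 and 418 in the unsorted, 2119 and 873 in the CD10- and 1571 and 1222 in the CD10+ arrays did not overlap. PTX3 (a secreted pattern recognition protein, 1.46 ± 0.33, adjusted p = 0.0515), the adhesion receptor gene ICAM1 (1.01 ± 0.30, adjusted p = 0.129) and the feedback inhibitor gene TNFAIP3 (0.80 ± 0.26, adjusted p = 0.164) did not pass either. IL6 itself, which the medium supplies as protein, read 30.6 and 20.4 in the unsorted arrays and 16.02 to 22.6 in the sorted arrays, with overlap. In 13 of the 27 genes the sorted arrays lay wholly above the unsorted arrays and in 0 wholly below, against 9.92% and 17.1% of all genes. The median was 0.62 without unsorted replicate 1 and 0.27 without replicate 2.

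The CXCL3 promoter is shown because CXCL3 had the largest increase among genes well above background and because 13 of the 22 list genes in the RefSeq table have at least 1 window with the NF-kB consensus, against 11.8% of all 27305 genes there (9.96% of the 35116 windows). The sequence is the 250 bases before the start (GRCh38.p14, chr4:74038690-74038939, minus strand, printed 5′ to 3′ in the direction of the gene), and capitals mark overlapping matches of the consensus, searched on both strands, that begin 79 and 78 bases before the start.
CXCL3: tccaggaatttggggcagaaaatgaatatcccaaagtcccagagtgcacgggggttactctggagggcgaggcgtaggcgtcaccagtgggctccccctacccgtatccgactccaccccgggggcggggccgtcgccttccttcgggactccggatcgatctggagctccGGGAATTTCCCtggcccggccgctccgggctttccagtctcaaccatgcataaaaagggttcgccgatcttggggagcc
The other listed genes with the consensus are CCL20, CXCL1, CXCL2, IL6, IRF1, NFKB1, NFKB2, NFKBIA, NFKBIZ, PTX3, REL and TNFAIP3. Of these CXCL1 differed by 1.53 ± 0.56, CXCL2 by 0.69 ± 0.58, CCL20 by 1.21 ± 0.54, NFKBIA by 0.19 ± 0.23 and NFKB1 by -0.03 ± 0.22, and none of the 5 passed. A match of letters is a description and says nothing about binding.

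**Figure D3:**
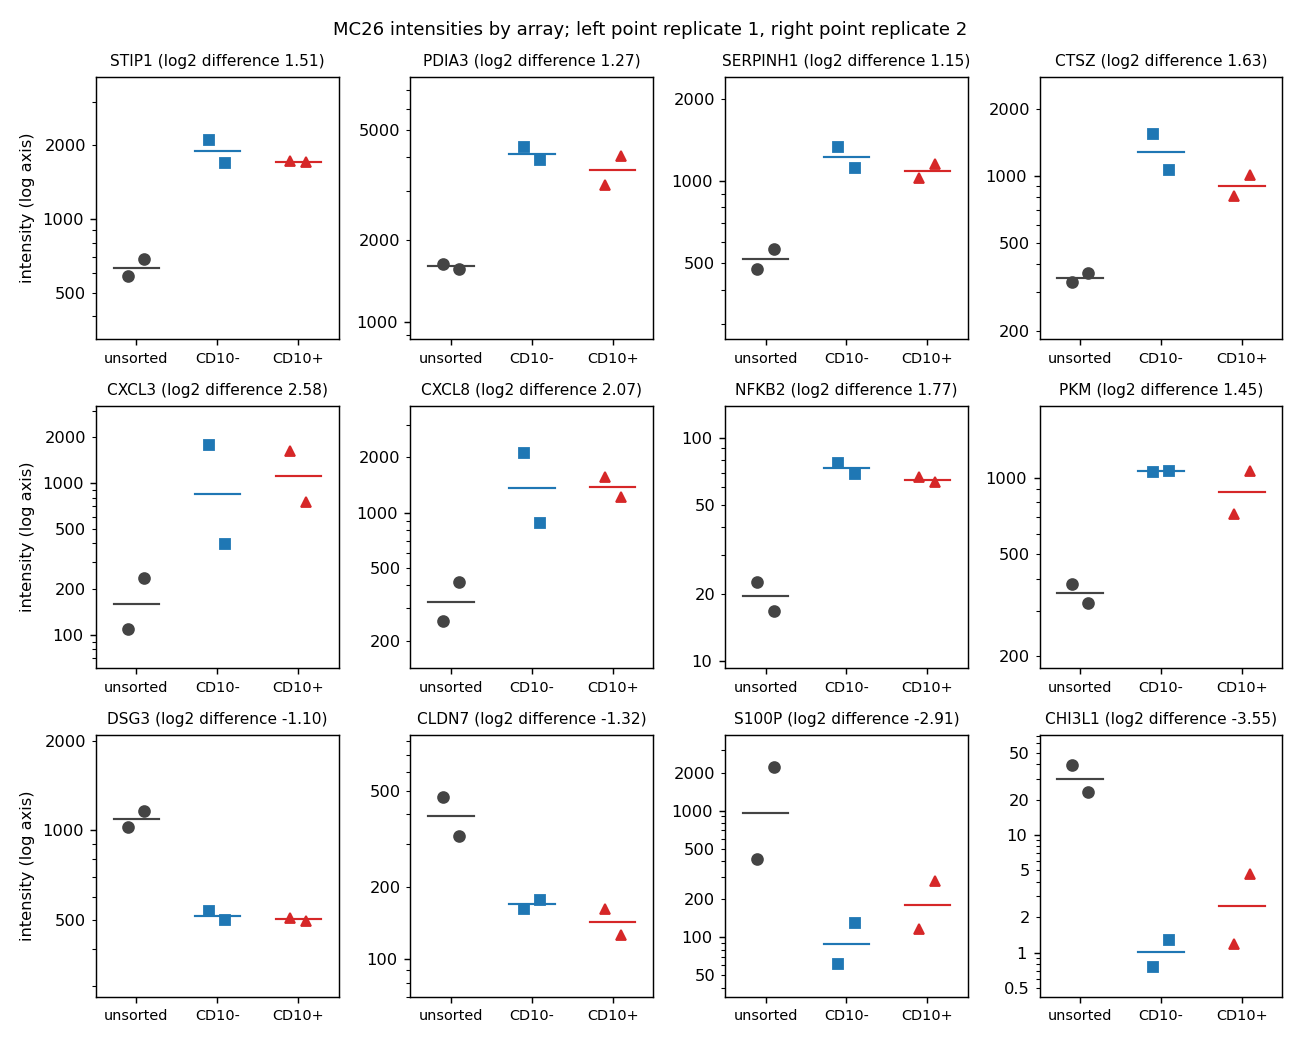
Intensities of 12 genes on the 6 MC26 arrays (log axis), by population, with replicate 1 on the left and replicate 2 on the right of each column and horizontal lines at the means of the log2 values. For the 8 genes from STIP1 to PKM all 4 sorted points lie above both unsorted points, and for DSG3, CLDN7, S100P and CHI3L1 they lie below. CXCL8 is shown although its difference of 2.07 did not pass.

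The other large increases were in genes of RNA and nuclear function and in genes near background. RRP9, part of the U3 complex that processes ribosomal RNA, read 68.9 and 64.4 in the unsorted, 257 and 279 in the CD10- and 179 and 314 in the CD10+ arrays and rose by 1.90 ± 0.30 (adjusted p = 0.00890), the 1 gene of 26 that passed in the ribosome biogenesis list, whose median was -0.02. MAD1L1, which encodes the spindle checkpoint protein MAD1, went from 23.1 and 19.8 unsorted to 65.5 to 91.1 sorted and rose by 1.76 ± 0.28 (adjusted p = 0.00890). HINT3, a nucleotide-binding protein of the histidine triad family, rose by 2.18 ± 0.41 (adjusted p = 0.0213), from 62.2 and 28.3 to 140.3 to 276. FBXO44, TAL1, C1orf159, AAAS, UNC93B1, TUT1 and IGFBP5 had larger or similar differences (2.92, 2.84, 2.80, 2.55, 2.36, 2.24 and 2.00), but their unsorted mean lay under the filter level of 14.3 intensity units, so that the sizes are uncertain. AAAS, which encodes the nuclear pore protein aladin, read 7.57 and 18.4 in the unsorted, 73.8 and 61.8 in the CD10- and 67.3 and 102 in the CD10+ arrays. TAL1, a transcription factor of blood progenitors, read 2.63 and 3.44 unsorted and 21.5 to 46.0 sorted, and the leukocyte marker sums beside it are those given above. UNC93B1, which carries Toll-like receptors to endosomes, had another probe set at -0.19. The unsorted values of C1orf159 were 0.956 and 20.2. Without unsorted replicate 1 the adjusted p was over the threshold for C1orf159 (0.276), UNC93B1 (0.0787), TUT1 (0.0506) and IGFBP5 (0.298), and without replicate 2 for FBXO44 (0.0754) and HINT3 (0.110). With its probe sets averaged HINT3 was 1.16 (adjusted p = 0.113).

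In the hypoxia and glycolysis list 1 of 35 genes rose, PKM, and the median was 0.10. PKM, the pyruvate kinase of the last step of glycolysis, read 383 and 322 in the unsorted, 1054 and 1063 in the CD10- and 723 and 1059.8 in the CD10+ arrays. Its sorted arrays were all above the unsorted arrays, with a difference of 1.45 ± 0.28 (adjusted p = 0.0236) and another probe set at -0.28. Without unsorted replicate 1 and 2 in turn its adjusted p was 0.0658 and 0.0831, and with its probe sets averaged the difference was 0.59 (adjusted p = 0.274). LDHA and PGK1, other glycolytic enzymes, differed by -0.23 ± 0.14 and -0.22 ± 0.12 and did not pass. EGLN3, a prolyl hydroxylase induced by hypoxia, reached 1.46 ± 0.33 with an adjusted p of 0.050002, just outside the threshold. In the interferon list 1 of 33 genes rose and 1 fell. These were BST2, the virus-tethering membrane protein (150.0 and 162 unsorted, 338 to 364 sorted, 1.17 ± 0.20, adjusted p = 0.0124), and OAS3, an oligoadenylate synthetase (228 and 292 unsorted, 129 to 149 sorted, -0.87 ± 0.19, adjusted p = 0.0472, another probe set at 0.43). Without replicate 1 and 2 of the unsorted arrays in turn, the adjusted p was 0.0780 and 0.0421 for BST2 and 0.0685 and 0.165 for OAS3, and OAS3 was -0.22 (adjusted p = 0.802) with its probe sets averaged. With the fractions averaged by replicate number PKM, BST2 and OAS3 did not pass (adjusted p = 0.134, 0.0554 and 0.148). The median of the interferon list was -0.12.

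The desmosomal genes DSG3 and DSP and the tight junction gene CLDN7 were lower after sorting. They are the 3 genes of 21 tested in the epithelial junction list that fell, and 0 rose, the median was -0.46, and in 11 the sorted arrays lay wholly below the unsorted ones, against 17.1% of all genes. DSG3, a desmosomal cadherin of basal cells, read 1029.8 and 1160.4 in the unsorted, 539 and 499 in the CD10- and 508 and 499 in the CD10+ arrays. The 4 sorted values were close together and well under both unsorted values, a fall of 1.10 on the log2 scale (SE 0.18, adjusted p = 0.0101). DSP, which encodes desmoplakin, the link from desmosomes to keratin, went from 4174 and 5307 to 2317 to 3147 and fell by 0.70 (SE 0.15, adjusted p = 0.0479). CLDN7, a tight junction claudin, read 473 and 323 in the unsorted, 162 and 176 in the CD10- and 162 and 126 in the CD10+ arrays and fell by 1.32 (SE 0.28, adjusted p = 0.0403). CLDN1 (-1.37 ± 0.31, adjusted p = 0.0531) and CDH1, which encodes E-cadherin (-0.86 ± 0.21, adjusted p = 0.0688), did not pass. Without unsorted replicate 1 the adjusted p was 0.0351 for DSG3, 0.0585 for DSP and 0.252 for CLDN7, and without replicate 2 it was 0.0535, 0.185 and 0.0434. The list median was -0.37 and -0.40 in those fits. CLDN1 passed without replicate 2 (0.0394). With probe sets averaged the adjusted p was 0.0553 for DSG3 and 0.0514 for DSP. With the fractions averaged by replicate number none of the 3 passed (adjusted p = 0.0647 for DSG3, 0.141 for DSP and 0.126 for CLDN7).

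The largest decreases were in CHI3L1 and S100P. CHI3L1, a secreted chitinase-like glycoprotein, read 39.4 and 23.0 in the unsorted, 0.756 and 1.28 in the CD10- and 1.19 and 4.62 in the CD10+ arrays. All sorted values were near background, so the fall of 3.55 on the log2 scale (SE 0.79, adjusted p = 0.0483) is uncertain in size, and its adjusted p was 0.234 and 0.0746 without unsorted replicate 1 and 2 in turn. S100P, a calcium-binding protein of the S100 family, read 418 and 2201 in the unsorted, 61.0 and 129.5 in the CD10- and 117 and 278 in the CD10+ arrays. The unsorted arrays were far apart, yet both were above all sorted arrays. S100P fell by 2.91 (SE 0.63, adjusted p = 0.0472), with an adjusted p of 0.0142 without unsorted replicate 1, 0.217 without replicate 2 and 0.0519 in the fit with probe sets averaged. Its relative S100A8, abundant in stressed keratinocytes, differed by -0.99 ± 0.23 (adjusted p = 0.0610) and did not pass. In the keratinocyte differentiation list 0 of 21 passed (7 at an unadjusted p under 0.05), and the median was -0.55.

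Among the remaining large decreases were transcripts that act as RNA or on RNA. The long non-coding RNA genes LINC00342 and THUMPD3-AS1 fell by 1.96 and 1.96 (adjusted p = 0.00890 and 0.00915). THUMPD3-AS1 read 141 and 117 in the unsorted, 25.1 and 20.1 in the CD10- and 48.9 and 44.0 in the CD10+ arrays, and its probe set, like that of FBXO44, may in part bind other transcripts according to its suffix. RBM4, which regulates splicing, fell by 1.66 (adjusted p = 0.0292) from 195 and 171 to 46.9 to 71.8. RBM39, a splicing coactivator, was the 1 gene of 26 in the splicing list to pass, at -0.79 ± 0.17 (adjusted p = 0.0472), and the list median was -0.18. MALAT1, a nuclear RNA of splicing speckles, read 4518 and 4370.3 in the unsorted, 2761 and 2821 in the CD10- and 3544 and 2333 in the CD10+ arrays and did not pass (-0.65 ± 0.18, adjusted p = 0.103). HERC1, a very large ubiquitin ligase, went from 258 and 275 to 84.9 to 138 and fell by 1.35 (adjusted p = 0.00457). OGDH, a dehydrogenase of the citric acid cycle, fell by 1.30 (adjusted p = 0.0149), while its 2 other probe sets gave 0.60 and 0.62. NOTCH2NLA (-1.44 ± 0.27) has near-identical copies, so its reading is uncertain as to the gene. CCDC57, ARSD and WBP2 fell by 1.62, 1.58 and 1.48, while another probe set of CCDC57 gave 0.27. With unsorted replicate 1 and 2 left out in turn, the adjusted p was 0.0319 and 0.0526 for LINC00342, 0.0685 and 0.0352 for THUMPD3-AS1, 0.142 and 0.0653 for RBM4, 0.298 and 0.0512 for RBM39 and 0.0787 and 0.0520 for OGDH. It was 0.101 and 0.0638 for NOTCH2NLA, 0.253 and 0.0350 for CCDC57, 0.214 and 0.0782 for ARSD and 0.162 and 0.0350 for WBP2. With probe sets averaged, LINC00342 was -1.03, ARSD -0.76, OGDH -0.02 and RBM39 -0.80 (adjusted p = 0.360, 0.239, 0.973 and 0.145).

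The genes that fell also included several that are long on the chromosome. The median gene span (GRCh38.p14, first to last annotated base) was 40.9 kb among the 37 that fell, 17.3 kb among the 63 that rose and 29.6 kb among all genes tested. Of the 37 that fell 13 spanned over 100 kb, and of the 63 that rose 2 did, against 17.9% of all genes. Examples picked after their values were seen are SYNE2, a giant linker of nucleus and cytoskeleton (-1.13, adjusted p = 0.0415), PRKDC, the catalytic subunit of DNA-dependent protein kinase (-1.03, adjusted p = 0.0292), UBR4, a ubiquitin ligase (-1.27, adjusted p = 0.0153), and AHNAK (-1.21, adjusted p = 0.0292). The adjusted p, with unsorted replicate 1 and 2 left out in turn, was 0.331 and 0.0338 for SYNE2, 0.0942 and 0.0918 for PRKDC, 0.0709 and 0.0550 for UBR4 and 0.0519 and 0.118 for AHNAK. Across the 12159 genes with a span, Spearman's rho between span and the sorted minus unsorted difference was -0.12 in MC26, -0.11 in M1B26 and -0.03 in MCF10A-CT, a description over genes that share arrays. A second probe set of UBR4 gave 1.38. Over the 100 called genes, 60 had another probe set above the level, and in 24 of these at least 1 pointed the other way.

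Most response lists held no gene that passed. Among 33 lists, 26 had no member past the threshold in this limma fit, as none passes in the methods' t-test, and 11 of the 100 called genes were in any list. For these lists the number of genes at an unadjusted p under 0.05 is given in brackets, to be read beside 1768 of 12171 over all genes. Of the immediate early and AP-1 list 0 of 30 passed (14), with a median of 0.25. FOS, the classic early gene, read 2591 and 475 in the unsorted, 829 and 2124 in the CD10- and 788 and 2168 in the CD10+ arrays. Unsorted replicate 1 had the highest FOS value and unsorted replicate 2 the lowest, so the populations overlapped, and the difference was 0.25 ± 0.66 (adjusted p = 0.902). JUN differed by 0.92 ± 0.35, EGR1 by 0.88 ± 0.35, ATF3 by -1.70 ± 0.44 and DUSP1 by -0.06 ± 0.24 (adjusted p = 0.234, 0.261, 0.0826 and 0.934). IER3, the member with the smallest p, was 0.98 ± 0.24 (adjusted p = 0.0640). The list median was 0.38 without unsorted replicate 1, where IER3 passed as higher (0.00847), and without replicate 2 the median was -0.01 and ATF3 passed as lower (0.0381). Of the ERK feedback list 0 of 19 passed (4, median 0.32), including the ERK phosphatase DUSP6 at 0.32 ± 0.48. Its median was 0.51 with 2 genes passing as higher without unsorted replicate 1, and -0.14 with 1 passing as lower without replicate 2.

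The lists for the factors in the medium gave no calls with both unsorted arrays in the fit. At an unadjusted p under 0.05 stood 1 of the BMP, 2 of the IL6 and 3 of the glucocorticoid genes. For the BMP pathway 0 of 19 genes passed (median -0.08). Its direct targets ID1, ID2 and ID3, inhibitors of helix-loop-helix factors, differed by 0.43 ± 0.27, 1.47 ± 1.11 and 1.72 ± 1.03 (adjusted p = 0.501, 0.575 and 0.469), and SMAD7, an inhibitor of the pathway, by -0.17 ± 0.30. Leaving out unsorted replicate 1, ID2 and ID3 were -1.33 and -0.85 and did not pass (0.712 and 0.844), and without replicate 2 they were 4.28 and 4.29 and passed (0.0394 and 0.0350). The BMP list median was -0.18 with 1 gene lower in the first of these fits and 0.16 with these 2 genes higher in the second. SMAD6, another inhibitor, was under the filter and was not tested, at 11.7 and 174 in the unsorted and 15.1 to 51.6 in the sorted arrays. The receptor gene BMPR1B read 286 and 266 in the unsorted, 153 and 177 in the CD10- and 150.2 and 162 in the CD10+ arrays (-0.78 ± 0.23, adjusted p = 0.125). For IL6 and STAT3 0 of 21 passed (median -0.08), with a median of 0.01 and -0.18 without unsorted replicate 1 and 2 in turn, and SOCS3, the feedback inhibitor of IL6 signalling, was at -0.71 ± 0.60 (adjusted p = 0.639). For glucocorticoid targets 0 of 18 passed (median -0.19), with FKBP5 at -0.31 ± 0.19 and TSC22D3 at -1.01 ± 0.59. In the fit that left out unsorted replicate 1, 1 glucocorticoid gene passed as lower.

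Housekeeping and metabolic groups had small shifts without calls. Among 52 ribosomal protein genes 0 passed (14 at an unadjusted p under 0.05), the median was -0.26, and 50 lay below 0 and 35 had sorted arrays wholly below the unsorted ones. Respiratory chain subunits had a median of -0.19 with 0 of 52 passing (6 at an unadjusted p under 0.05). ACTB and GAPDH, often used as references, differed by -0.26 ± 0.16 and -0.23 ± 0.13 (adjusted p = 0.491 and 0.447). The cholesterol list had 0 of 23 passing (4 at an unadjusted p under 0.05) and a median of -0.52, but it split the sorted arrays by replicate number. SCD, which desaturates stearoyl-CoA, read 5421 and 5008 in the unsorted, 1530.2 and 4630.5 in the CD10- and 1414 and 4649 in the CD10+ arrays, so that replicate 1 of both fractions was under replicate 2 and under both unsorted arrays. FOS showed the same split, as did histone genes, whose mean over the list was -0.34 and -0.60 in replicate 1 and 0.24 and 0.33 in replicate 2 of the fractions (log2 scale, each gene centred on its MC26 mean).

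Cell cycle genes showed what the choice of unsorted array does. Of the G1-S list, genes of DNA replication, 0 of 46 passed (6 at an unadjusted p under 0.05), with a median of 0.49 and 44 above 0. Of the G2-M list, genes of mitosis, 0 of 59 passed (4 at that p), with a median of 0.09. MCM2, a subunit of the replicative helicase, read 380.3 and 828 in the unsorted, 1460.1 and 1459.6 in the CD10- and 1163 and 1466 in the CD10+ arrays (1.30 ± 0.39, adjusted p = 0.131). Both unsorted values were below the sorted values, and replicate 1 was the lower one. Without unsorted replicate 1 the G1-S median was -0.16 with 12 of 46 genes above 0, and without replicate 2 it was 1.15 with 46 of 46 above 0. The G2-M median was -0.36 and 0.62 in the same fits. The sign of both list medians thus turned with the array kept.

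The difference between the unsorted MC26 arrays is described next by its genes and lists. The genes were picked by their size and carry no test, as there is 1 array on each side. Replicate 1 was below replicate 2 in all 46 tested G1-S genes (median -1.32 on the log2 scale), in 58 of 59 G2-M genes (-0.97) and in 16 of 17 heat shock genes (-0.60), against a median of 0.02 over all genes. It was above replicate 2 in 20 of 22 genes of the integrated stress response (1.09) and in 18 of 19 of the ERK feedback list (0.55). In the unsorted M1B26 arrays replicate 1 was likewise below replicate 2 in 46 of 46 G1-S genes (median -1.14), 58 of 59 G2-M genes (-0.70) and 16 of 17 heat shock genes (-0.59), and above it in 21 of 22 integrated stress response genes (0.77). The unsorted MCF10A-CT arrays gave medians of 0.22, -0.04, 0.01 and 0.39 for these 4 lists. What the arrays of a replicate number shared across lines is not given in the labels. ASNS, which makes asparagine, read 3909 in replicate 1 and 343 in replicate 2, and 238 to 365 in the sorted arrays. CHAC1, a glutathione-degrading enzyme, read 132 and 10.6, with 2.22 to 13.4 in the sorted arrays. GDF15, a stress-induced cytokine, read 566 and 42.5 (sorted 66.2 to 98.4), and PHGDH, the first enzyme of serine synthesis, 1149.6 and 108 (sorted 177 to 293). In these 4 genes replicate 1 stood alone and replicate 2 lay with or near the sorted cells.

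The BMP targets ID2 and ID3 went the other way between the unsorted arrays, as did CD24 and POSTN, all picked by size. Over the BMP list replicate 1 was below replicate 2 in 13 of 19 genes and above it in 6 (median -0.27 on the log2 scale). ID2 read 18.7 in replicate 1 and 965 in replicate 2 (sorted 152 to 822), and ID3 read 80.5 and 2860.1 (sorted 1258 to 1784). The surface glycoprotein gene CD24 read 70.1 and 4492 (sorted 403 to 538), and POSTN, a matrix protein, 7.79 and 1288 (sorted 12.4 to 228). For CD24 and POSTN both unsorted arrays lay outside the sorted range, on opposite sides. The fibroblast marker sums above span the same gap, since POSTN is one of those markers. The integrated stress response list had 0 of 22 genes passing (7 at an unadjusted p under 0.05) and a median of -0.60, which was -0.04 without unsorted replicate 1 and -1.09 without replicate 2, where 4 genes passed as lower. SLC7A11, the cystine transporter of that list, read 2082 and 1163 in the unsorted, 759 and 707 in the CD10- and 615 and 747 in the CD10+ arrays (-1.14 ± 0.28, adjusted p = 0.0731).

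The ASNS promoter is shown because ASNS had one of the largest gaps between the unsorted arrays and its window holds the ATF4 element (TGATG, any base, AA), searched on both strands. It is the 250 bases before the start (RefSeq, GRCh38.p14, chr7:97872409-97872658, minus strand, printed in the direction of the gene), with the match in capitals, 68 bases before the start.
ASNS: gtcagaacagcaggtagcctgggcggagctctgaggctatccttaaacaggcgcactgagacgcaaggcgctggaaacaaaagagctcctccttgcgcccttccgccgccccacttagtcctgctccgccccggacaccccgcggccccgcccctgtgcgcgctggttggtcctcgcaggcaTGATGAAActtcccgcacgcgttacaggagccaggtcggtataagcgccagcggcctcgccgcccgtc
The element is in 1104 of 35116 windows (3.14%) and, of 18 list genes in the table, in windows of 3, ASNS, CEBPG and CHAC1. ASNS has 2 windows, of which 1 holds it.

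**Figure D4:**
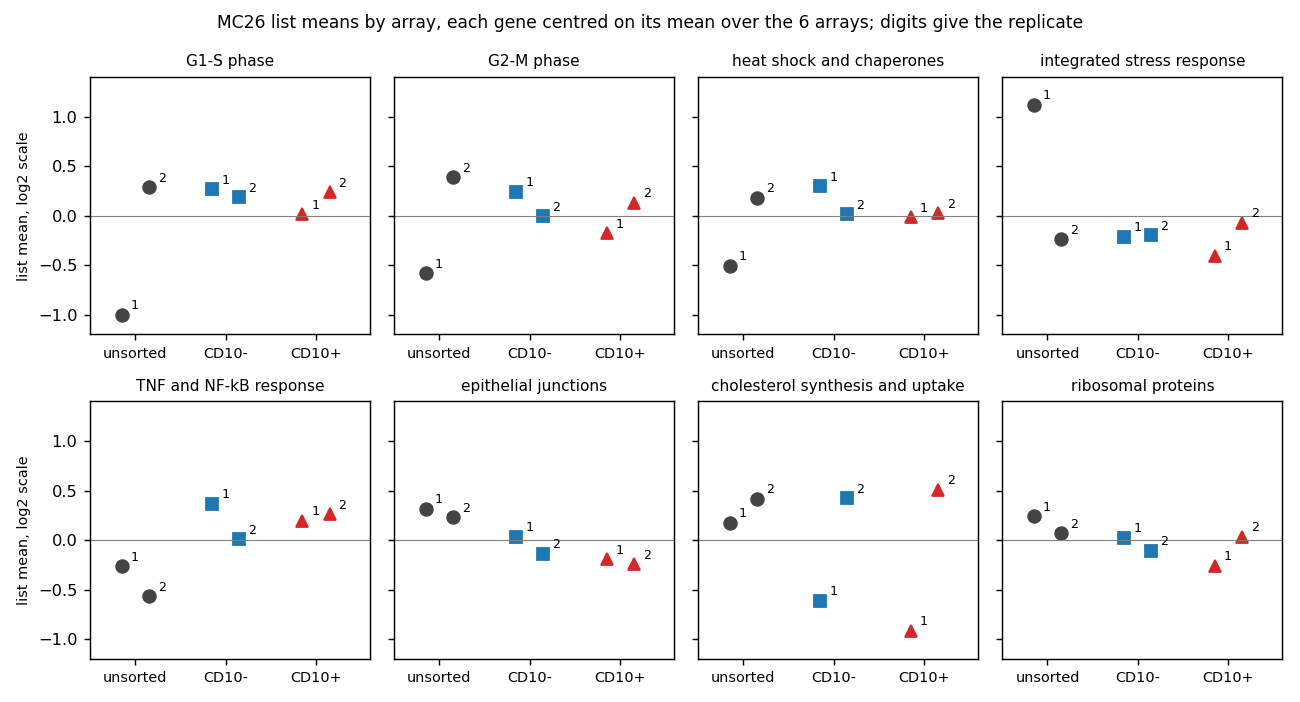
Mean of 8 gene lists on each MC26 array (log2 scale, each gene centred on its mean over the 6 arrays), by population, with the replicate number beside each point. Unsorted replicate 1 stands below the other 5 arrays for G1-S, G2-M and heat shock genes and above them for the integrated stress response, both unsorted points lie under all sorted points for the NF-kB list and over them for epithelial junctions, and cholesterol genes split the sorted arrays by replicate.

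Taken one at a time, the sorted fractions gave fewer calls than their average. Against the unsorted arrays, CD10- cells had 33 genes higher (0.271% of genes tested) and 8 lower (0.0657%), 0.337% in all. CD10+ cells had 16 higher (0.131%) and 9 lower (0.0739%), 0.205% in all. The comparisons share the unsorted arrays, and 17 genes were called in both. STIP1 was 1.58 in CD10- and 1.44 in CD10+ cells, PDIA3 1.36 and 1.17, and DSG3 -1.07 and -1.12 (log2 scale). NFKB2, SERPINH1, BST2 and PKM passed in CD10- cells (1.85, 1.24, 1.15 and 1.59) and not in CD10+ cells (1.69, 1.07, 1.18 and 1.32), and whether the fractions differ in these genes is not shown by that. Of the 100 genes called for the average, 53 passed in neither fraction alone. In a fit of the MC26 arrays alone, CD10- cells had 7 calls and CD10+ cells 0 (1302 at an unadjusted p under 0.05), and CD10+ cells had 0 calls without either of their arrays.

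The same contrast was measured in the other lines, and the same-numbered unsorted arrays of M1B26 and MC26 deviated together as given above. Sorted minus unsorted gave 2705 calls in MCF10A-CT (22.2% of genes tested, 6.58% higher and 15.6% lower) and 513 in M1B26 (4.21%, 2.56% higher and 1.65% lower). Of the 63 genes that rose in MC26, 60 had the same sign in M1B26 (49 passed there) and 59 in MCF10A-CT (33 passed). Of the 37 that fell, 35 had the same sign in M1B26 (19 passed) and 28 in MCF10A-CT (16 passed). Over all genes tested the median difference was 0.10 in M1B26 and -0.13 in MCF10A-CT on the log2 scale. PDIA3 and CTSZ rose in all 3 lines, by 1.42 and 1.98 in MCF10A-CT and by 1.72 and 2.24 in M1B26, and so did NFKB2 (1.87 and 1.35). STIP1 rose in M1B26 (1.79) and was 0.15 in MCF10A-CT (adjusted p = 0.553). Of the junction list 10 of 21 genes fell in M1B26 (median -0.92), where DSG3 fell by 1.70, while in MCF10A-CT the median was 0.16 and DSG3 was 0.49 (adjusted p = 0.0623).

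Tested directly, the sorted minus unsorted difference of MC26 differed from that of MCF10A-CT in 739 genes (6.07%), 491 higher (4.03%) and 248 lower (2.04%), and the cell cycle made up part of them. In MCF10A-CT 58 of 59 G2-M genes and 41 of 46 G1-S genes fell on sorting (medians -1.84 and -2.06), and the MC26 difference passed as higher in 56 G2-M and 39 G1-S genes. Without unsorted MC26 replicate 1 these counts were 17 and 4, and with the fractions averaged by replicate number 3 and 1. MCM10, a replication factor, was 0.96 in MC26 and -3.43 in MCF10A-CT (difference of differences 4.39 ± 1.16, adjusted p = 0.0377). CDC25A, a phosphatase that opens the way to S phase, was 0.80 against -3.04 (adjusted p = 0.0134), and TEDC1 0.72 against -3.69 (adjusted p = 0.00327). In the other direction CHI3L1 fell in MC26 and rose by 6.09 in MCF10A-CT, and S100P fell in MC26 and rose by 2.88 there (adjusted p of the difference = 0.00165 and 0.00495). Without unsorted MC26 replicate 1 the adjusted p was 0.213 for MCM10 and 0.0895 for CDC25A, and with the fractions averaged 0.105 and 0.0753, while TEDC1, CHI3L1 and S100P passed in both fits. Of the 100 genes called in MC26, 11 of those that rose and 9 of those that fell differed between these lines, among them STIP1 (adjusted p = 0.00844), AAAS (0.0108), DSG3 (0.00560), CLDN7 (0.0162) and PKM (0.0414). Of these 5, STIP1 and DSG3 passed without unsorted MC26 replicate 1 (0.0492 and 0.0215) and AAAS, CLDN7 and PKM did not (0.0626, 0.101 and 0.103), PKM did not pass without replicate 2 either (0.0865), and with the fractions averaged the 5 lay between 0.0511 and 0.132. The count rests in part on unsorted replicate 1 of MC26, since fewer genes passed without it. It also rests on the arrays being separate units, since 33 passed with the fractions averaged by replicate number. No MCF10A-CT array was left out in turn, so how far the count rests on those arrays was not tested. The CD10- MCF10A-CT arrays were over 2-fold apart in 1475 genes (12.1%). Same-numbered sorted MCF10A-CT arrays deviated together (r = 0.63 between the replicate differences of the fractions, across genes).

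Against M1B26, 0 genes passed (limma, 722 at an unadjusted p under 0.05, smallest adjusted p 0.106). A miss of the threshold does not show that the lines respond alike. Nearest to the threshold on the side higher in MC26 were CDH1, at -0.86 in MC26 and -2.52 in M1B26, MALAT1 at -0.65 and -2.14, AAAS at 2.55 and -0.10, S100A14 at -0.17 and -1.91 and FAM83B at 0.10 and -1.499. On the other side were SPOCK1 at -0.04 and 2.42, TRIM46 at 0.03 and 2.65, CBX5 at 0.12 and 1.57, SHISAL1 at -0.93 and 2.06 and CHI3L1 at -3.55 and 1.61. None of these 10 differences between the lines passed. Leaving out an unsorted MC26 array brought 11 genes past the threshold (without replicate 1) or 2 genes (without replicate 2), among them S100A14 (0.0387) and AAAS (0.0177) in turn. With a replicate block fitted within each line the count was 13 genes. Such a block does not model the deviation that the same-numbered unsorted arrays of MC26 and M1B26 shared.

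**Figure D5:**
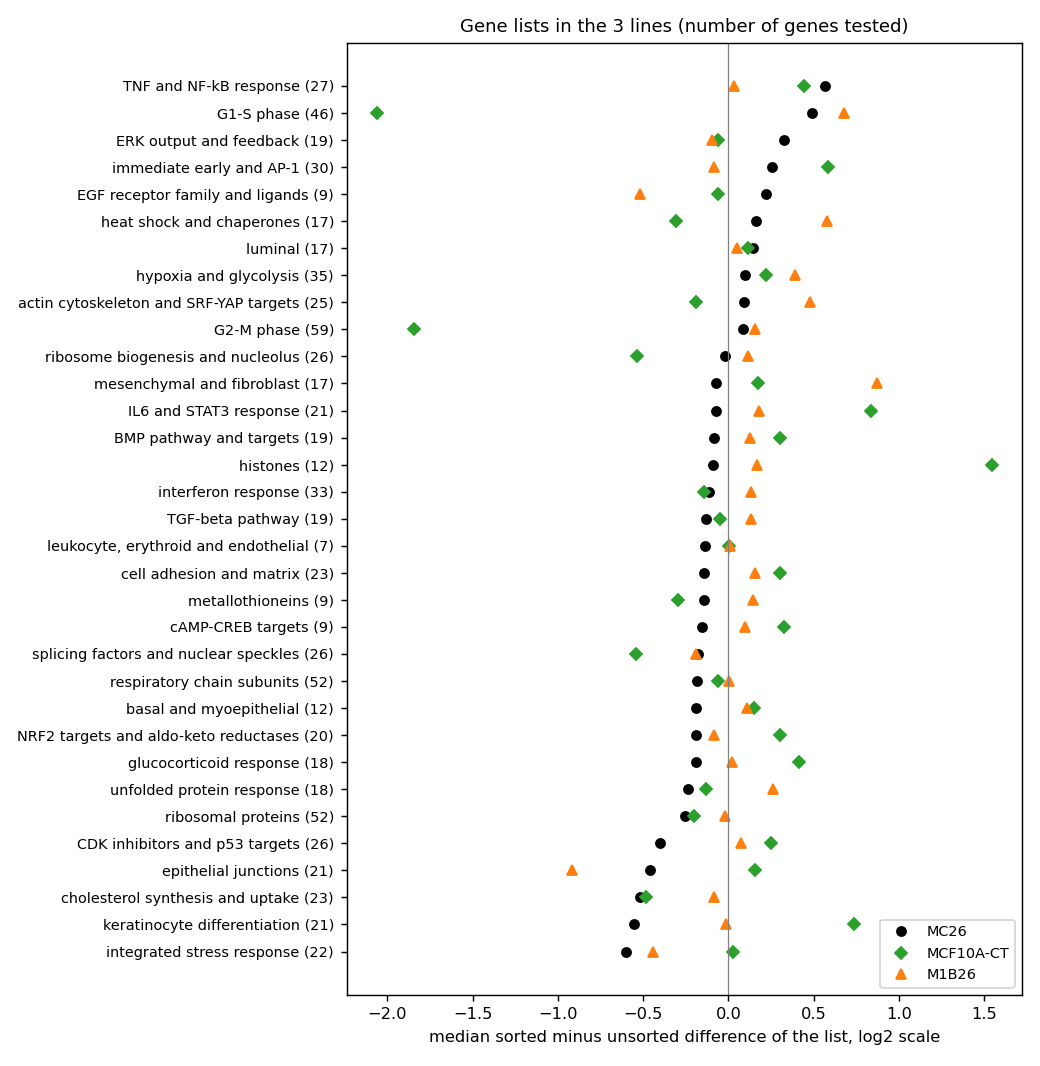
Median sorted minus unsorted difference (log2 scale, x axis) of 33 gene lists in MC26 (black circles), MCF10A-CT (green diamonds) and M1B26 (orange triangles), ordered by MC26, with the number of genes tested in brackets. The MC26 medians lie between -0.60 and 0.57, the G1-S and G2-M medians of MCF10A-CT lie at -2.06 and -1.84, and the junction list is lowest in M1B26 at -0.92.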

How the data were processed

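RNA from the 18 samples was amplified from 50 ng with a 3′ IVT kit and hybridised to Affymetrix HG-U133 Plus 2.0 arrays, 1 array per sample. Per the processing notes, the authors used MAS5 in Affymetrix Expression Console (versions not given). The deposited numbers are intensities on a linear scale, a value for each probe set on each array, scaled to a common median of 16.7 per array. The study's methods name RMA, which these values are not.

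Of 54675 probe sets, 41091 carried 1 gene, 1801 several and 11721 none, and 62 were controls; names came from the platform annotation and the RefSeq gene table of GRCh38.p14. Intensities were analysed as log2(intensity + 1), with the probe set of the highest mean for each of 19775 genes. Genes with a mean at or under the median probe set (log2 3.93, intensity 14.3) were left out, leaving 12171. A group mean under that level is called near background. The number of arrays limits the precision, with a median SE of 0.257 on the log2 scale.

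Differences were tested with limma 3.58.1 in R 4.3.3 (9 group means over 18 arrays, eBayes with trend, 9 residual degrees of freedom, two-sided, Benjamini-Hochberg adjusted p under 0.05). Errors after ± are SEs, with n = 4 sorted and 2 unsorted arrays. Their variance is moderated and pooled over the 9 groups, so they do not measure the spread of the MC26 arrays alone. On simulated data of 12171 genes for MC26 sorted minus unsorted, 40% of 100 genes changed by 1 and 87% of 100 changed by 2 on the log2 scale were called. The simulated arrays were drawn independently, with a common spread for all groups of a gene. In the data the same-numbered sorted arrays deviated together and the unsorted MC26 arrays lay farther apart, which the simulation left out.

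Named genes are the 12 largest changes each way, the 5 largest each way for differences between lines, up to 6 members with the smallest p per list, and a fixed set that includes MME, FOS, ID1 to ID3, ACTB and BMPR1B; others are said to be picked by value. The members and lists were chosen with earlier results of these data known. Lists are described by counts and medians. Alternatives were another pseudocount, no filter, quantile normalization, centring, mean probe sets, array weights, a replicate block, MC26 arrays alone, the methods' t-test, leaving out each MC26 array, and averaging the fractions.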

Additional observations from a re-analysis of the deposited data

Results flagged for a closer look

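The sorted minus unsorted difference of MC26 differed from that of MCF10A-CT in 739 genes by limma's test of the difference of differences, and 10 of them are given here with that value on the log2 scale. Higher in MC26 were TEDC1 at 4.41, MCM10 at 4.39, TMPO-AS1 at 4.39, SCEL at 3.998 and CDC25A at 3.84 (adjusted p = 0.00327, 0.0377, 0.0180, 0.0223 and 0.0134). In MCF10A-CT these genes fell on sorting, by 3.69, 3.43, 3.95, 3.59 and 3.04, and in MC26 none of the 5 passed. Without unsorted MC26 replicate 1 the difference between the lines no longer passed for MCM10, TMPO-AS1, SCEL and CDC25A (adjusted p = 0.213, 0.114, 0.101 and 0.0895), nor with the fractions averaged by replicate number (0.105, 0.0738, 0.0707 and 0.0753), while TEDC1 passed both ways (0.0215 and 0.0306). SCEL, a protein of the cornified envelope, read 27.9 and 35.3 in the unsorted, 104 and 18.1 in the CD10- and 86.4 and 18.3 in the CD10+ arrays in MC26, so its sorted arrays split by replicate number. TMPO-AS1, an RNA antisense to TMPO, read 14.5 and 79.4 in the unsorted, 64.1 and 50.0 in the CD10- and 38.2 and 39.5 in the CD10+ arrays, so that the sorted arrays lay between the unsorted ones.

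Lower in MC26 were CHI3L1 at -9.65, S100P at -5.79, LEMD1 at -5.03, SERPINA3 at -4.74 and LAPTM5 at -4.52 (adjusted p = 0.00165, 0.00495, 0.0108, 0.00296 and 0.0205). Within MC26, LEMD1, SERPINA3 and LAPTM5 differed by -1.55, -1.54 and -0.76 and did not pass (adjusted p = 0.311, 0.114 and 0.681). In MCF10A-CT CHI3L1, S100P, LEMD1, SERPINA3 and LAPTM5 rose on sorting, by 6.09, 2.88, 3.48, 3.20 and 3.76. Without unsorted MC26 replicate 1 LEMD1 was -4.26 and LAPTM5 -2.75 and neither passed (adjusted p = 0.0691 and 0.101), nor did they with the fractions averaged (0.0586 and 0.106), while CHI3L1, S100P and SERPINA3 passed both ways. SERPINA3, an acute phase protease inhibitor, read 437 and 318 in the unsorted, 99.4 and 85.6 in the CD10- and 97.0 and 317 in the CD10+ arrays in MC26. LAPTM5, a lysosomal membrane protein, read 308 and 25.6 in the unsorted, 59.0 and 51.7 in the CD10- and 46.2 and 54.0 in the CD10+ arrays, and its unsorted arrays lay on either side of the sorted ones.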

How the results depend on the processing

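Among the named genes, 0 of 807 values called in the main setting or in the alternative changed sign. For genes called between sorted and unsorted MC26 cells, the lack of overlap fixed this in advance wherever an array was left out. Several other alternatives leave the log2 difference itself unchanged, so no sign could turn there. These were no filter, array weights, the replicate block, MC26 arrays alone, averaged fractions and the methods' t-test. Among 200 gene results called in neither, 39 changed sign in at least 1 alternative, and so did the medians of 19 of 33 lists, 13 of them on leaving out an unsorted MC26 array. For sorted against unsorted MC26 cells, the 100 calls became 185 with quantile normalization, 193 with arrays centred on the tested genes, 49 with array weights, 61 with the MC26 arrays alone and 0 with the methods' t-test after Benjamini-Hochberg adjustment (1713 at an unadjusted p under 0.05). With the fractions averaged by replicate number, an alternative chosen after seeing the data, there were 22, and for the difference from MCF10A-CT 33 in place of 739. Leaving out 1 MC26 array gave 38 to 133 calls, with 41 and 54 when CD10- replicate 1 or 2 was absent and 38 and 61 when CD10+ replicate 1 or 2 was absent. For CD10- cells the 41 calls became 26 without the filter, 73 with centring, 7 with MC26 arrays alone and 6 to 51 with 1 array left out. The 25 calls for CD10+ cells became 13 without the filter, 38 with quantile normalization, 48 with centring, 10 with mean probe sets, 6 with array weights, 0 with the MC26 arrays alone and 0 to 24 with 1 array left out. The 739 became 1165 with quantile normalization (57.0% higher, against 66.4%) and 140 to 1038 with 1 array left out (140 without unsorted replicate 1, 423 with CD10- replicate 1 absent, 441 with CD10+ replicate 2 absent), and centring gave 55.6% higher. Against M1B26 the count of 0 became 1 with quantile normalization, 1 with centring and 0 to 11 with 1 array left out. The cause of these shifts was not tested. Replicate numbers did not pair unsorted with sorted MC26 arrays (r of 0.06 and 0.05 between their replicate differences), and a replicate block gave 277 calls for the average, 84 for CD10-, 74 for CD10+, 1484 against MCF10A-CT and 13 against M1B26. For single named genes and lists, 4012 values kept their call or size, 219 lost the call, 83 gained one and 108 moved. Genes near background, where arrays give little signal, limit the size of 9 called differences.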
